A study of Drosophila melanogaster with 8 samples.

Results

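The change in head transcript levels between the end of a drug sequence and a drug-free interval was measured as the day-14 minus the day-10 log2(treated/control) ratio, in male fruit flies (Drosophila melanogaster). A clone entered the comparison if 3 or more arrays of day 14 and 3 or more of day 10 had measured it, which left 4563 of the 13824 clones of the array, and 1881 of these were measured on all 8 arrays. Of the 4563 clones, 2771 carried 1 gene in the array's annotation, naming 2599 genes. The flies were unmated males of the wild-type strain Oregon-R, 3 to 4 days old at the start and kept 30 to a vial. Treated flies of both days ate food with 8 mg/ml pentylenetetrazole (PTZ) over 7 days, followed by 3 days on 24 mg/ml vigabatrin (VGB). The day-14 flies were moved to normal food for 4 more days, and the day-10 flies were taken at once. Control flies stayed on normal food throughout and were harvested with the treated flies of their replicate. Each array set 1 pool of treated heads against 1 pool of control heads, so the days share neither treated nor control RNA. Each day had 4 biological replicates, of which the last 2 were hybridised with exchanged dyes (treated RNA in Cy3).

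PTZ blocks the chloride channels that GABA, the main inhibitory transmitter of the insect brain, opens, and it causes seizures. VGB inactivates GABA transaminase, the enzyme that breaks GABA down, and so raises GABA. A fly head holds brain, eyes, antennae, muscle, cuticle and a layer of fat body, which is the insect's counterpart of liver and adipose tissue. The design asks which transcripts return to the control level once both drugs are withdrawn and which ones move away from it.

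Values are log2 ratios with each array's median subtracted, so 0 is the level of the median clone and 1 is a 2-fold difference. They were taken as treated over control from the dye labels, which makes the direction likely and not settled. If the submitters had turned the swapped arrays already, the swapped arrays would be read with the wrong sign here. At day 14 the number of spots with a value was 9266, 15594, 15866 and 13281 per array, and at day 10 it was 19731, 20240, 14592 and 8419. Of the photoreceptor markers on the array, Arr1 and inaD were measured on 8 arrays, trp on 7, chp on 6 and Arr2 on 2. The neuronal marker nSyb and the glial markers alrm, Gs2, Tret1-1 and drpr were measured on 8, and the muscle markers Act88F and Mlc2 on 8 and 7. The testis and accessory gland markers Acp36DE, betaTub85D, dj and Mst87F were measured on 3, 3, 2 and 1 arrays. The midgut protease gene Jon65Aiv was also measured on 8 arrays. In whole heads, fewer cells of a type and less RNA per cell cannot be told apart.

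No clone changed between the days by limma with Benjamini-Hochberg adjustment over the 4563 clones (0 higher and 0 lower, 0%; smallest adjusted p = 0.286). At an unadjusted limma p under 0.05 there were 207 clones higher at day 14 (4.54%) and 279 lower (6.11%), 486 in all (10.7%). The difference had a median standard error of 0.19, and the 95% interval of a typical clone reached 0.427 to either side. For 4037 clones (88.5%) that interval held no change beyond 2-fold in either direction, while changes smaller than the interval were not detectable at this number of arrays. An estimated difference beyond 2-fold was seen for 16 clones, 5 higher and 11 lower at day 14. As deposited, without subtraction of array medians, the median clone moved by 0.283, so changes are given relative to the array median.

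The ratios of the 2 days were related over clones, with a Pearson coefficient of 0.336 and a Spearman coefficient of 0.319, given as a description because clones share the slide. Without day-10 replicate 3 the Pearson coefficient was 0.142. The spread of the ratios was 0.236 at day 14 and 0.276 at day 10 (SD over clones). Over the clones on 8 arrays, the interquartile range per array was 0.425 ± 0.048 at day 14 and 0.484 ± 0.076 at day 10 (SD, n = 4 each). This difference did not pass an exact two-sided permutation test (p = 0.2, where the smallest possible is 0.0286).

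**Figure D1:**
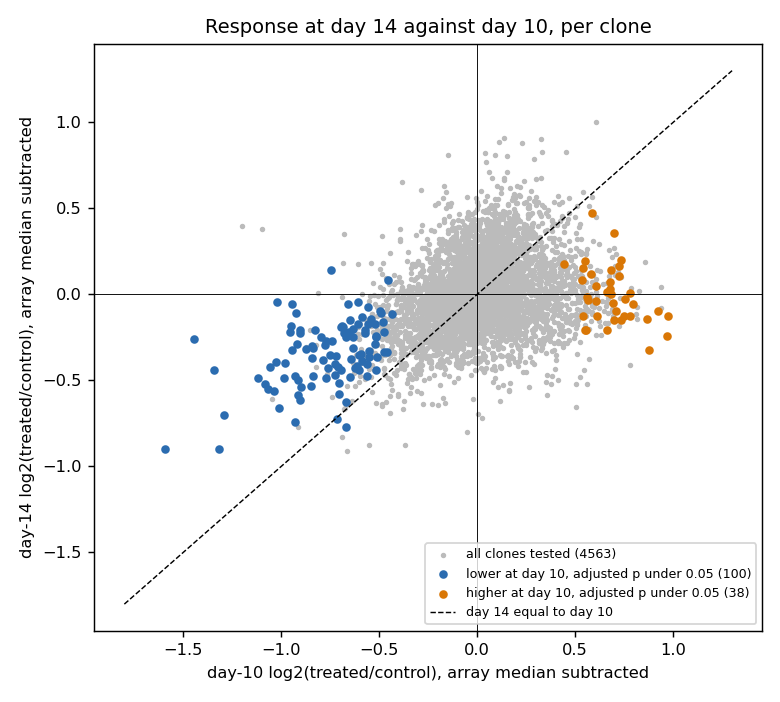
Each point is a clone, with its day-14 ratio (vertical axis) against its day-10 ratio (horizontal axis), both log2(treated/control) with the array median subtracted. The 100 clones lower at day 10 (blue) lie mostly below 0 and above the dashed line of equality, and the 38 higher at day 10 (orange) lie on both sides of 0 at day 14.

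The clones that were lower in treated heads at day 10 were, for the most part, still below the control level at day 14. At day 10, 100 clones fell (2.19%) and 38 rose (0.833%) by limma at an adjusted p under 0.05, and these values choose the groups described next. The count of 138 rests heavily on day-10 replicate 1, without which it was 3. The 100 lower clones had a median of -0.34 at day 14 (range -0.90 to 0.14) and -0.71 at day 10 (range -1.59 to -0.43). At day 14, 98 of the 100 lay below 0, against 52.1% of all clones tested, and 62 had an unadjusted limma p under 0.05 as lower, against 8.92% of all. The p-values of both days came from the same fit and share each clone's variance and dye term. Choosing clones by the day-10 p therefore also favours a small day-14 p, so the count of 62 is not independent of the choice. By array, 76 of 90, 82 of 92, 80 of 98 and 85 of 96 measured clones were below 0 at day 14. All clones had 54.4%, 56.2%, 44.8% and 50.7% below 0 on the same arrays. Day-14 ratios came closer to 0 in 98 of the 100 (51.4% of all clones), but the day-10 values that chose the clones enter that count, so nothing is read from it. With the swapped arrays left unturned, the same 100 clones had medians of 0.0073 at day 14 and 0.062 at day 10.

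CG2233, a gene of unassigned function here, had the lowest day-10 ratio of any named clone called that day. It had -0.45, -0.66, -1.05 and -1.44 on the day-14 arrays, against -1.81, -0.74, -1.20 and -2.61 on the day-10 arrays. All 8 values were below 0 and the days overlapped, with a difference of 0.69 ± 0.31 (SE; limma adjusted p = 0.469). Cyp313a1, a cytochrome P450 gene, had -0.60, -1.56, -0.27 and -1.15 at day 14, against -1.06, -1.35, -1.36 and -1.50 at day 10. It too stayed below 0 on every array, with a difference of 0.42 ± 0.26 (adjusted p = 0.56 by limma). CG16926 had -0.70 at day 14 and -1.29 at day 10, and it was below 0 on all 8 arrays as well.

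Tret1-1, a trehalose transporter gene of blood-brain barrier glia, had the smallest difference among the clones named for day 10, though not after local centring, which subtracts the median of neighbouring spots. It had -0.81, -0.50, -0.53 and -0.47 at day 14, against -0.80, -0.86, -0.57 and -0.59 at day 10. The difference was 0.13 ± 0.14, with a 95% interval from -0.18 to 0.43 (limma adjusted p = 0.741), and after local centring it was 0.38, above the 0.11 of CG11400. Lsp2, a larval serum storage protein gene expressed in adult fat body, had -0.054, -0.84, -0.70 and -0.86 at day 14, against -0.74, -1.32 and -0.81 on 3 day-10 arrays. Its values overlapped between the days, with a difference of 0.29 ± 0.22.

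Alg7, whose enzyme opens the assembly of N-glycans, lay nearest to the control level at day 14 among the 12 named clones lowest at day 10. It had 0.29, -0.29, -0.18 and 0.0055 at day 14, against -1.01, -0.74 and -1.22 on the 3 day-10 arrays that measured it. The days did not overlap, and the difference was 0.98 ± 0.19, which did not pass over all clones (limma adjusted p = 0.286). Where an array is missing, the fitted values are adjusted for the dye and differ from plain means. CG17108 had 0.29, -0.52 and -0.41 at day 14 and -1.10, -1.04 and -0.64 at day 10, also without overlap, with a difference of 0.77 ± 0.26 (limma adjusted p = 0.402). The day-10 values that chose Alg7 and CG17108 enter their separation and their differences.

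Miox, the myo-inositol oxygenase gene, had -0.48, -0.11, -0.66 and -0.98 at day 14, against -1.54, -0.24, -1.21 and -1.16 at day 10. Galk, the galactokinase gene, had -1.03, -0.060 and -0.17 at day 14 and -1.85, -0.71 and -0.997 at day 10. Cyt-b5-r, whose product resembles cytochrome b5, had -0.16, -0.67, -0.022 and -0.83 at day 14 and -0.86, -0.43, -1.22 and -1.72 at day 10. Each of the 3 genes was below 0 on every array and overlapped between the days, with differences of 0.48, 0.56 and 0.64 (limma adjusted p = 0.506, 0.519 and 0.428). Jhbp13, of the juvenile hormone binding protein family, and CG11400 had -0.32 and -0.40 at day 14 and -0.94 and -0.98 at day 10.

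**Figure D2:**
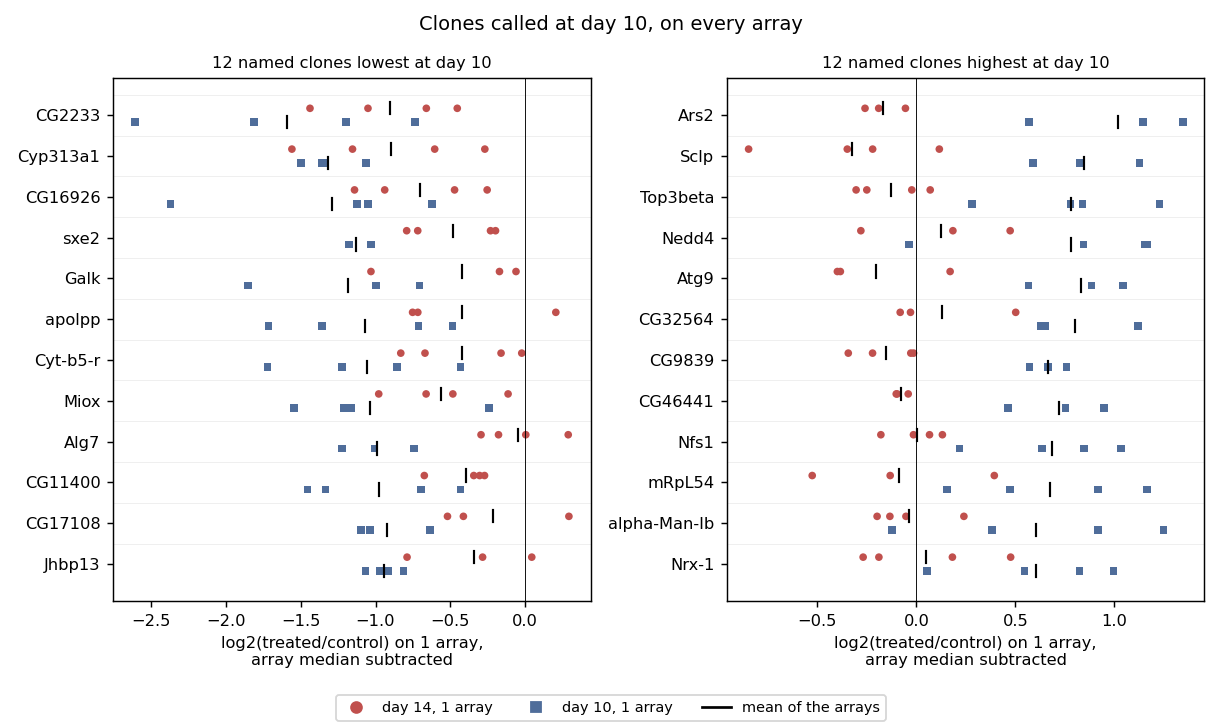
Dots are single arrays at day 14 (red circles) and day 10 (blue squares), and black bars are their means, in log2(treated/control) with the array median subtracted. The 12 named clones lowest at day 10 (left) keep mostly negative values at day 14, while the 12 highest at day 10 (right) scatter around 0.

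The group of 38 clones called higher at day 10 depended on the setting. It fell to 4 clones after local centring, 7 with a replicate block and 0 without day-10 replicate 1 or without the first 16 print blocks, against 56, 48, 3 and 68 lower clones in those settings. It rose to 107 with a dye term per day and to 52 without day-14 replicate 1, against 142 and 100 lower clones. The 38 clones had a median of -0.028 at day 14 (range -0.32 to 0.47) and 0.68 at day 10 (range 0.44 to 0.97). At day 14, 17 of the 38 lay above 0, against 47.9% of all clones, and 2 had an unadjusted limma p under 0.05 as higher, against 10.4% of all. All 38 were printed in the first 16 of the 48 print blocks of the slide, which hold 40.1% of the clones tested. After local centring 37 of the 38 had a median of 0.038 at day 14 and 0.19 at day 10. The part of slide position in their day-10 values was not tested beyond that. With the swapped arrays left unturned, 76.3% of the 38 had the same sign on both days.

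Top3beta, a topoisomerase gene, had -0.023, 0.070, -0.25 and -0.30 at day 14, against 1.23, 0.78, 0.84 and 0.28 at day 10. No day-14 value reached a day-10 value, and the difference was -0.91 ± 0.17 (limma adjusted p = 0.286), or -0.45 after local centring. The day-10 values that chose Top3beta enter this difference and the separation, as for the other clones named for being highest at day 10. Ars2, an RNA-processing gene, had 2 tested clones. One had -0.26, -0.19 and -0.055 at day 14 and 1.34, 1.14 and 0.57 at day 10, and the other had -0.18, -0.18, -0.020 and 0.32 at day 14 and 0.69, 0.92, 0.24 and 0.30 at day 10. Their differences were -1.10 ± 0.22 and -0.55 ± 0.20, and the days overlapped for the second clone, which lies in print block 21. Nedd4, a ubiquitin ligase gene, also had 2 clones, with differences of -0.77 and -0.20, and -0.20 and -0.23 after local centring. Nfs1, the cysteine desulfurase gene of iron-sulfur cluster assembly, had a difference of -0.68 that became -0.042 after local centring. Nrx-1, the gene of the synaptic adhesion protein neurexin, had -0.55 and -0.013 in the same settings, and CG9839 had -0.85 and 0.016. Over the 12 named clones highest at day 10, the locally centred differences ran from -0.65 for mRpL54 to 0.016 for CG9839.

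The slide position also moved with the change itself. Of the 279 clones with an unadjusted limma p under 0.05 as lower at day 14, 241 (86.4%) lay in the first 16 blocks, as did 34 of the 207 higher ones (16.4%). In the first 16 blocks the median clone had -0.054 at day 14 and 0.11 at day 10, and in the other 32 blocks it had 0.015 at day 14 and -0.039 at day 10. The median difference was below 0 in 13 of the first 16 blocks and in 3 of the other 32. After local centring 6.77% of 4255 clones had an unadjusted limma p under 0.05, and 0 passed adjustment (smallest adjusted p = 0.0633).

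**Figure D3:**
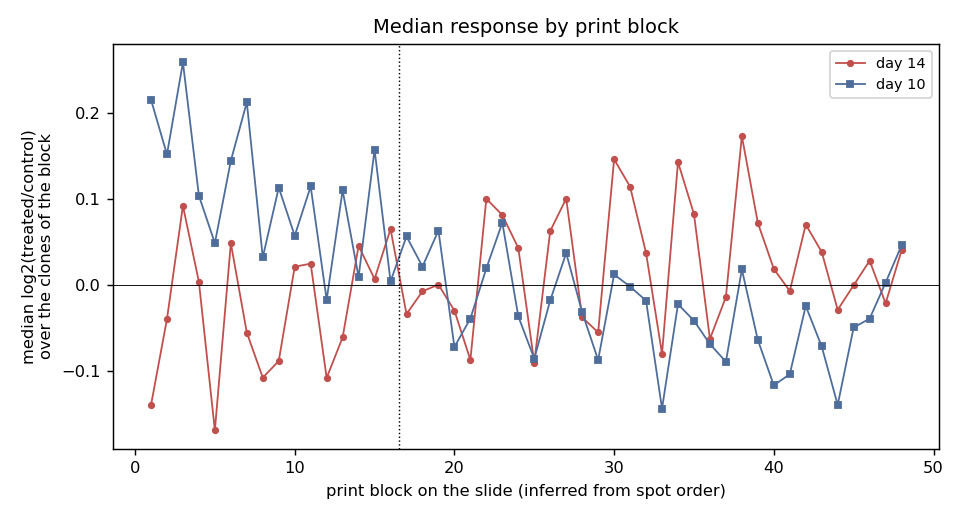
Median log2(treated/control) of the clones in each print block, at day 14 (red circles) and day 10 (blue squares), with blocks numbered in spot order and a dotted line after block 16. The day-10 medians lie mostly above the day-14 medians in the first 16 blocks and mostly below them in the later ones.

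The change was also estimated separately from the arrays of each dye orientation, 2 a day, which share no sample. Over the 4563 clones these 2 estimates had a Pearson coefficient of 0.016 and a Spearman coefficient of 0.026, and 51.4% had the same sign. Over the 1881 clones on 8 arrays the Pearson coefficient was 0.095, and over the 4255 clones with a locally centred value it was -0.050. Between single arrays of different days, the turned ratios had a median coefficient of 0.32 for the same dye orientation and 0.053 for opposite orientations. Within a day, single arrays of opposite orientations had a median coefficient of 0.105 at day 14 and 0.089 at day 10. For 158 genes with 2 tested clones on the same slides, the differences of both clones had a Pearson coefficient of 0.33. The ratios of both clones had 0.11 at day 14 and 0.38 at day 10.

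Among clones on all 8 arrays, 53 had every day-14 value above every day-10 value (2.82%) and 38 had every one below (2.02%). The 12 named clones of each direction with the largest moderated t are given as values, since none passed (limma adjusted p = 0.286 to 0.436). CG44014 had -0.55, -0.44, -0.42 and -0.50 at day 14, against -0.88, -0.81, -0.97 and -1.06 at day 10, with a difference of 0.45 ± 0.13. Ldsdh1, a lipid droplet dehydrogenase gene, had 0.14, -0.43, -0.019 and -0.27 at day 14, against -0.59, -0.58, -0.65 and -0.77 at day 10. Both were among the clones that fell at day 10, so the values that chose them enter their differences, and CG44014 kept all its day-14 values below 0. Obp19d, an odorant-binding protein gene, had 0.066, -0.040, 0.089 and -0.16 at day 14 and -0.45, -0.25, -0.52 and -0.28 at day 10, with a difference of 0.37 ± 0.14. A second Obp19d clone had a difference of -0.0025 ± 0.17 and a 95% interval from -0.38 to 0.38, which overlaps that of the first (0.051 to 0.68).

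Others lay near 0 at day 10 and above it at day 14. Mal-A2, a maltase gene, had 0.31, 0.59, 0.44 and 0.22 at day 14, against -0.036, -0.23, 0.19 and -0.30 at day 10. Klp67A, a kinesin gene of the mitotic spindle, had 0.21, 0.62, 0.40 and 0.37 at day 14, against -0.099, -0.13, 0.14 and 0.011 at day 10. CG10710 had a difference of 0.49 ± 0.15 and CG3529 one of 0.47 ± 0.17, and both had all day-14 values above 0. Son, a gene related to splicing, and ara, an Iroquois homeobox gene, had 0.46 and 0.35 at day 14 and 0.15 and -0.0073 at day 10. After local centring the differences of the 12 higher clones were all smaller, from 0.019 for Son to 0.46 for CG3529. Among those named above, CG44014 then had 0.20, Ldsdh1 0.24, Obp19d 0.11, Mal-A2 0.22 and Klp67A 0.19.

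Of the 12 lower ones, 11 lay in the first 16 print blocks, and ERp44 did not. After local centring all 12 were nearer to 0, from -0.51 for CG11893 to 0.17 for ytr, and ytr and CG4036 had turned sign. ERp44, a thioredoxin-family gene of the endoplasmic reticulum, had -0.17, -0.31, -0.51 and -0.46 at day 14, against 0.25, 0.15, -0.14 and 0.12 at day 10, with a difference of -0.45 ± 0.14, or -0.27 after local centring. The engulfment receptor gene drpr had 0.095, -0.15, -0.47 and -0.18 at day 14 and 0.36, 0.63, 0.36 and 0.36 at day 10. Its difference of -0.60 ± 0.15 became -0.087 after local centring. Ih, the gene of a hyperpolarisation-activated cation channel, had -0.13, -0.57, -0.12 and -0.046 at day 14, against 1.02, 0.27, 0.26 and 0.21 at day 10. CG11893 crossed 0, with -0.50 at day 14 and 0.41 at day 10, a difference of -0.91 ± 0.20 (limma adjusted p = 0.286), or -0.51 after local centring. CG2767 had a difference of -0.98 in a clone of block 5 and 0.20 in one of block 35.

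**Figure D4:**
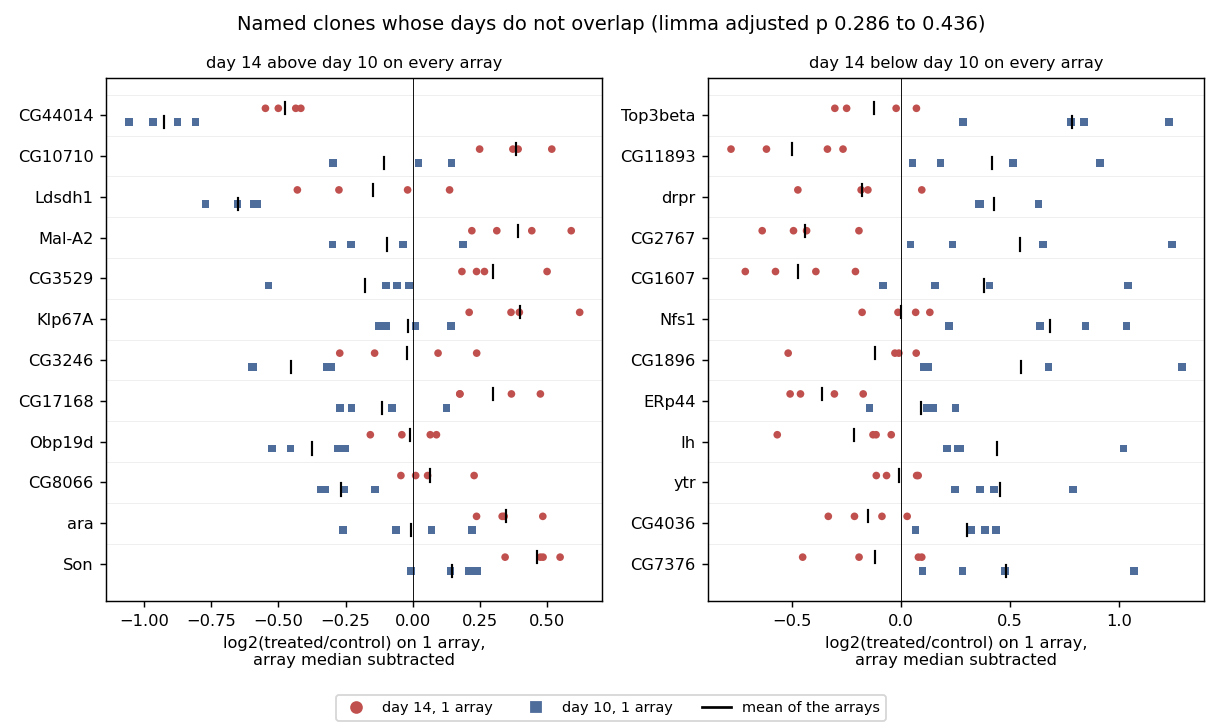
Dots are single arrays at day 14 (red circles) and day 10 (blue squares) in log2(treated/control), and black bars are their means, for the 12 named clones of each direction whose days do not overlap. CG44014 and Ldsdh1 have all day-10 values below 0, whereas Klp67A and CG10710 lie near 0 at day 10 and above 0 at day 14.

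At day 14 no clone differed from control by limma (0 of 4563, 0%; smallest adjusted p = 0.13). With array weights 251 clones passed, 126 higher and 125 lower, and with scaled arrays 2 passed, both lower. Unweighted, 474 had an unadjusted p under 0.05 as higher (10.4%) and 407 as lower (8.92%). The 407 lower clones had a median of -0.38 at day 14 and -0.28 at day 10, and 80.8% of them were below 0 at day 10, against 48.9% of all clones. The 474 higher clones had a median of 0.38 at day 14 and 0.090 at day 10, and 73.2% were above 0 at day 10, against 51.1% of all.

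The clones named for their day-14 ratio were of both kinds. The drosomycin gene Drs, an antifungal effector of the Toll pathway, had -1.47, -1.08, -0.36 and -0.59 at day 14, against -1.38, -0.71 and -0.020 at day 10. It was below 0 on all 7 arrays that measured it, with a difference of -0.32 ± 0.21 (limma adjusted p = 0.578). LManII, a lysosomal mannosidase gene, had -0.995, -0.72 and -0.59 at day 14, against -0.065, -0.11 and -0.070 at day 10. CG3604 had -0.60, -0.87 and -0.89 at day 14, against -0.031, 0.55, -0.23 and -0.19 at day 10. Both of these had day-14 values below every day-10 value, with differences of -0.75 ± 0.18 each, and did not pass over all clones (limma adjusted p = 0.337 each). The day-14 values that chose LManII and CG3604 enter their separation and their differences. Among the higher ones, CG7860 had 0.79, 0.71 and 0.37 at day 14 and 0.37, 0.14 and 0.022 at day 10. For Ote, the gene of the nuclear membrane protein otefin, the day-14 ratio rested on replicate 2 (1.77, against -0.25 and 0.15 in replicates 3 and 4), and the difference of 0.50 was -0.047 without the dye term.

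In the gene lists, 0 clones passed in either direction, and the counts below are of unadjusted limma p under 0.05 (10.7% of all clones), with list members named for their values after these were seen. The median difference over all clones was 0.016. After local centring the list median turned sign in 8 of the 29 lists with 5 or more tested clones. Among head fat body genes with sex-biased expression, 6 of 7 tested clones had a positive difference, with a list median of -0.21 at day 14 and -0.91 at day 10. The count was 4 higher and 1 lower. The 4 higher were sxe2, a lipase-family gene, Obp99b, CG17108 and CG11400, which had been called lower at day 10 and had differences of 0.64, 0.70, 0.77 and 0.58. For sxe2 the values were -0.23, -0.72, -0.20 and -0.79 at day 14, against -1.18, -1.18 and -1.03 at day 10, without overlap. Obp99b had -0.011, -0.50 and -0.26 at day 14, against -1.26, -1.07 and -0.54 at day 10, and was also separated. The yolk protein gene Yp2 was the lower one, with -0.11, 0.22, -0.21 and -0.41 at day 14 and 1.91, 0.87 and -0.26 at day 10. Its clone lies in print block 7, and its difference of -0.82 became -0.27 after local centring. The day-10 values by which sxe2, Obp99b, CG17108 and CG11400 were called lower enter their differences and the separation of the days. The list was drawn up with the day-10 values of its members known.

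Lipoprotein and storage protein genes of the haemolymph had a median difference of 0.27 over 7 clones. Both clones of apolpp, which encodes the chief lipid carrier protein of haemolymph, had positive differences, of 1.03 ± 0.25 and 0.52 ± 0.24. The first had 1.43, -0.63 and -0.53 at day 14 and -0.12, 0.017, -0.87 and -1.74 at day 10, so that its positive day-14 level came from replicate 1. The lipophorin receptor genes LpR1 and LpR2 had differences between -0.048 and 0.27. Of 6 immune clones, Drsl5, of the drosomycin family, had a difference of 0.53 ± 0.16, with -0.35, -0.64, 0.093 and -0.33 at day 14 and -1.09, -0.87, -0.84 and -0.56 at day 10. The Toll pathway serpin gene nec had 0.26 ± 0.20, and the Toll pathway transcription factor gene Dif had 0.062 ± 0.13. Drsl5 and the second apolpp clone had been called lower at day 10, so those day-10 values enter their differences.

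Glial and blood-brain barrier genes had 8 of 11 positive differences, with 2 higher and 1 lower, and 4 of the 11 lay in the first 16 print blocks. Their median difference of 0.13 became 0.079 after local centring, where Nrg (-0.023) and vari (-0.0069) turned negative. Gli, a gene of septate junctions, had 0.23, 0.24, 0.077 and 0.16 at day 14, against -0.42, -0.15 and -0.34 at day 10. Its difference of 0.49 became 0.27 after local centring. The gap junction gene Inx2 had a difference of 0.46 ± 0.18 and no locally centred value, and drpr was the lower one. The astrocyte gene alrm and the glutamine synthetase gene Gs2 had -0.40 and -0.16 at day 14 and -0.58 and -0.37 at day 10. Glutamate handling genes had a median difference of -0.22 over 5 clones, which was 0.085 after local centring, and none was counted.

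Of the GABA genes, 2 of 7 on the array were tested. Gad1, whose enzyme makes GABA, had -0.20, -0.15, -0.27 and -0.20 at day 14, against 0.54, 0.16, -0.53 and 0.14 at day 10. Its day-14 values lay within the day-10 range, with a difference of -0.28 ± 0.19 (limma adjusted p = 0.588; 0.15 after local centring). Lcch3, a GABA-gated channel subunit gene, had -0.28, -0.39 and 0.016 at day 14, against 0.98, 0.36, -0.58 and 0.24 at day 10. Its difference was -0.53 ± 0.30 (limma adjusted p = 0.532; -0.083 after local centring). Gabat, the gene of the transaminase that VGB inactivates, was measured on 2 day-14 arrays (-0.12 and 0.37) and 3 day-10 arrays (0.81, 0.12 and -0.31) and was not tested.

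Among neuronal genes, ion channel genes had 8 of 9 positive differences, the exception being Ih, and a median of 0.10. Of the 9 clones, 2 lay in the first 16 print blocks, and the median difference over all clones of the other 32 blocks was 0.095. After local centring the list median was 0.18, while nrv3, ClC-b and a clone of Sh had -0.14, -0.087 and -0.19. Vesicle release genes had a median of 0.030 over 9 clones (-0.026 after local centring), and the synaptobrevin gene nSyb was the 1 counted. It had 0.19, -0.071, -0.43 and -0.33 at day 14, against 1.47, 0.89, -0.46 and -0.013 at day 10, and so was high at day 10 in replicates 1 and 2 alone. The nSyb clone lies in print block 15, and its difference of -0.63 became -0.27 after local centring. Of 7 monoamine clones, 1 was counted in each direction. The lower one was speck, an arylalkylamine N-acetyltransferase gene, with -0.35, -0.33, -0.51 and -0.95 at day 14, against 0.76, 0.14, -0.079 and -0.40 at day 10, and a difference of -0.64 ± 0.19. The speck clone lies in print block 9, and its difference became -0.29 after local centring. The higher one was a clone of DopEcR, a receptor gene for dopamine and ecdysone, with a difference of 0.58 ± 0.19. Another DopEcR clone had 0.30 ± 0.31. Phototransduction genes had a median of -0.11 over 16 clones, which was 0.026 after local centring, with the rhodopsin pathway gene santa-maria lower and chp, a photoreceptor surface protein gene, higher. The differences of santa-maria, in print block 5, and chp were -0.62 and 0.43, and became -0.24 and 0.15 after local centring. Muscle genes ran from -0.063 to 0.20 over 11 clones and none was counted.

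Of the detoxification genes, glutathione transferases had negative differences in 8 of 9 clones, with a median of -0.18 at day 14 and 0.052 at day 10. GstD4 had -0.20, 0.23, -0.18 and -0.27 at day 14, against 0.86, 0.56, 0.76 and -0.070 at day 10, and GstD9 had -0.46, -0.43, -0.34 and -0.22 at day 14, against -0.34, 1.01, 0.24 and 0.17 at day 10. The list median difference of -0.25 was -0.14 after local centring. For cytochrome P450 genes the median over 24 clones was 0.083, with 2 counted in each direction. Cyp9f2 and Cyp6d5 were the lower ones, at -0.72 and -0.68.

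Sugar and inositol genes had a median difference of 0.13 over 19 clones, and none was counted although 4 had fallen at day 10. Oxidative phosphorylation genes had 0.026 over 28 clones, with the subunit genes levy and SdhD higher and COX4 lower. Cytoplasmic ribosomal protein genes had 0.077 over 19 clones (-0.021 after local centring), with 1 counted each way. Mitochondrial ribosomal protein genes had 0.040 over 17, and mRpS34, the clone with the largest difference of any list, had 1.54, -0.69 and -0.37 at day 14, against -1.18, -0.21, -0.79 and -2.62 at day 10. Its positive day-14 level again came from replicate 1. Proteasome genes had -0.053 over 15 clones, with Prosbeta5 and Prosbeta7 lower. Autophagy and V-ATPase genes had -0.062 over 21 clones (-0.017 after local centring), 9 of the 21 being in the first 16 blocks. The autophagy gene Atg9, the proton pump gene Vha55 and the endosomal sorting genes Vps37B and shrb were lower. Atg9 had 0.17, -0.38 and -0.40 at day 14 and 1.04, 0.88 and 0.57 at day 10. Its clone lies in print block 5, and its difference of -0.87 became -0.25 after local centring. It had been called higher at day 10, so those values enter the difference.

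**Figure D5:**
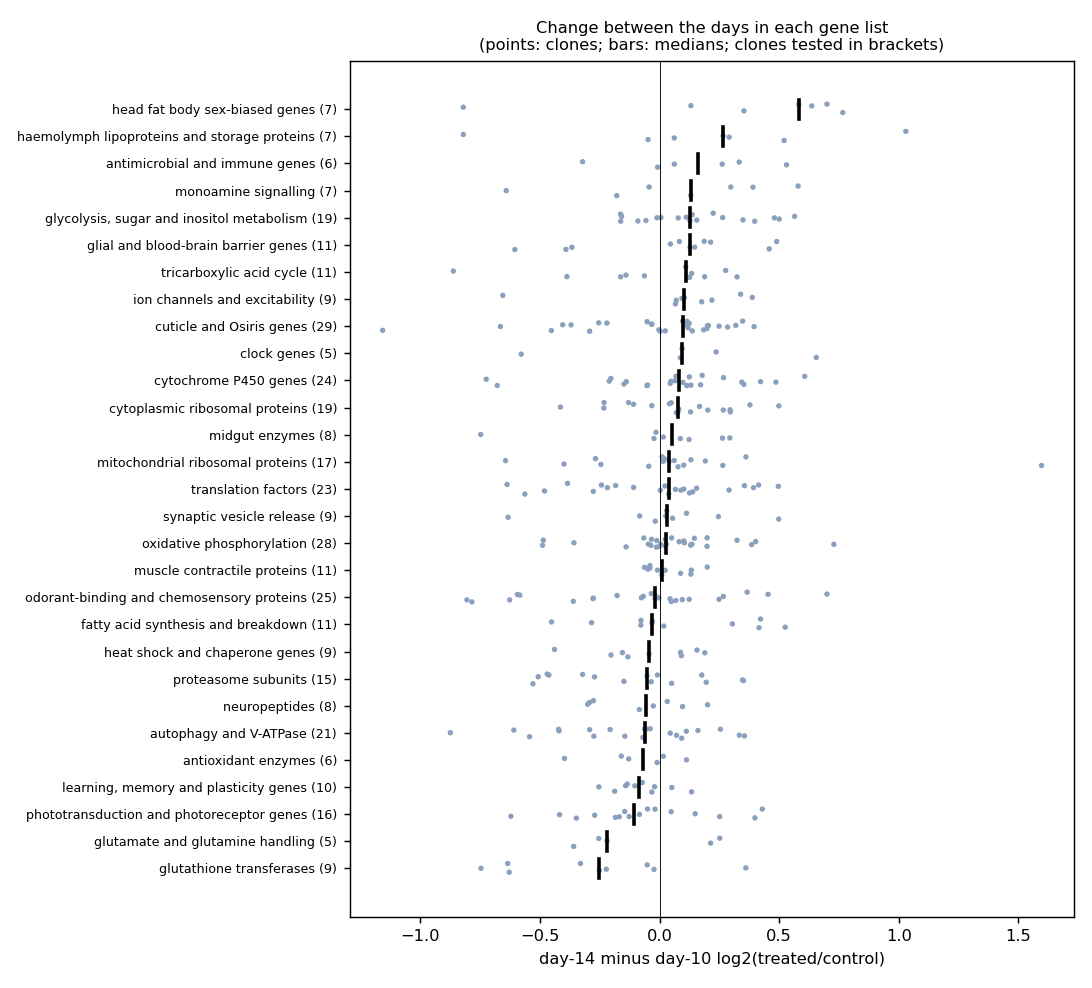
Points are clones and black bars list medians of the day-14 minus day-10 log2(treated/control) difference, for the 29 gene lists with at least 5 tested clones. List medians run from -0.25 for glutathione transferases to 0.58 for head fat body sex-biased genes, and single clones spread widely around them.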

How the data were processed

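Per the submitters' processing notes, the authors quantified the scans in GenePix Pro 6.0, and normalization by ratio followed in Acuity 4.0, with filters on intensity, background, saturation and signal-to-noise. The authors deposited 1 log2 ratio per spot and array, with the log2 scale read from the values and the direction not stated. Intensities were not used here, so signal over background is unknown beyond those filters. The submitters' text ends before a test is named, and the genome build is not given in the sources used here.

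The 2 neighbouring spots of a clone were averaged, ratios were read as Cy5 over Cy3 and turned on the swapped arrays, 3 capped spots were left out, and each array's median was subtracted. Models with a coefficient per day and a dye term common to both days were fitted with limma 3.58.1 in R 4.3.3 over 4563 clones, with Benjamini-Hochberg adjustment at 0.05. The number of arrays limits the precision, and p-values measure the spread between these arrays. Of 7558 clones with 1 gene, 7447 took their symbol from RefSeq. Print blocks were inferred from spot order. Local centring used neighbours within 2 rows and 3 clones.

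The members and lists were chosen with earlier results of these data known. Named were the 12 clones of each direction with the largest moderated t among those whose days did not overlap, the 12 with the largest day-10 ratio of each sign among those called, the 6 with the largest day-14 moderated t of each sign, the GABA genes and the genes of an earlier description of day 10. The fit was checked on simulated data with independent noise and no print-block pattern, so that check does not cover slide position. Alternatives were other centrings, dye terms, weights, filters, the other reading of direction, a replicate block and each array left out.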

Additional observations from a re-analysis of the deposited data

Results flagged for a closer look

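In 9 of 148 groups of 4 arrays (6.08%), 1 array stood apart from the other 3 by Dixon's test, which chance does in about 1 in 20 groups. Among named genes, drpr had 0.63 in day-10 replicate 2, CG3529 had -0.54 in day-10 replicate 1 and CG1896 had -0.52 in day-14 replicate 4. Ih stood apart on both days, with -0.57 in day-14 replicate 2 and 1.02 in day-10 replicate 1. Among list medians, glutamate handling had -0.23 in day-14 replicate 1 and the proteasome had -0.16 in day-14 replicate 4. Odorant-binding and chemosensory proteins had 0.49 in day-10 replicate 1, and cytochrome P450 genes had -0.057 in day-10 replicate 3.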

How the results depend on the processing

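The count of 0 changed clones between the days was the same under every alternative run, with a smallest limma adjusted p of 0.0633 after local centring and between 0.0757 and 0.635 with 1 array left out. The 138 clones called at day 10 became 649 as deposited (18 higher and 631 lower), 60 after local centring (4 and 56), 59 without the dye term, 249 with a dye term per day, 67 with array weights, 1 with ratios read as already turned and 68 without the first 16 print blocks, a setting chosen after seeing the data. With 1 array left out they ranged from 3 to 152. At day 14, where 0 passed, 2 passed with scaled arrays and 251 with array weights (126 higher and 125 lower). The replicate numbers were not taken to pair the samples. This was checked on deviations of each array from the clone means of its day. The deviations of same-numbered arrays had correlations of 0.0997, 0.26, 0.16 and 0.25. In this check day-14 replicates 1 and 3 had their highest correlation with day-10 replicates 2 and 4, and day-14 replicates 2 and 4 with their own number. Correlations ran from 0.077 to 0.26 between arrays of the same dye orientation and from -0.30 to -0.087 between opposite ones. Because the values follow the dye orientation, the check cannot tell whether the replicates are paired. The turned ratios of same-numbered arrays had coefficients of 0.052, 0.28, 0.37 and 0.43. With a replicate block, 55 clones passed at day 10 (7 higher and 48 lower) and 0 for the difference. The coefficient between the days ranged from 0.142 to 0.396 with 1 array left out. Read as already turned, 76.3% of the clones higher at day 10 kept their sign at day 14.

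List medians relative to all clones moved as follows. Read as already turned they were -0.052 for glutamate handling, -0.091 for head fat body, -0.046 for glutathione transferases, 0.12 for mitochondrial ribosomal proteins, -0.15 for the tricarboxylic acid cycle, 0.091 for fatty acid genes, 0.16 for muscle and 0.21 for cuticle. After local centring they were 0.074 for glutamate handling, -0.15 for glutathione transferases, -0.065 for the tricarboxylic acid cycle and 0.14 for fatty acid genes. After print-block centring they were -0.11 for glutamate handling, 0.092 for oxidative phosphorylation and 0.16 for fatty acid genes. Glutathione transferases had -0.15 with array weights, and head fat body had 0.34 over clones on all arrays. With 1 array left out, the ranges were -0.28 to -0.11 for glutamate handling, -0.012 to 0.28 for clock genes, -0.35 to -0.13 for glutathione transferases, -0.077 to 0.054 for fatty acid genes and -0.080 to 0.13 for cuticle genes.

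Of 1288 recomputed differences of 66 named clones, 33 changed sign, 26 of them with ratios read as already turned. These were -0.10 for CG44014, -0.063 for Ldsdh1, -0.19 for CG3246, -0.000375 for Obp19d, -0.013 for CG8066, 0.083 for Atg9, 0.15 for CG32564, 0.13 for mRpL54, -0.044 for ana2, 0.083 for drpr, 0.076 for CG2767, 0.017 for ERp44, 0.17 for ytr, -0.30 for Cyp313a1, -0.20 for CG16926, -0.32 for Galk, -0.11 for apolpp, -0.41 for Cyt-b5-r, -0.11 for CG11400, -0.16 for Jhbp13, 0.042 for Drs, 0.054 for CG3604, 0.039 for CG1468, -0.054 for Lsp2, 0.33 for Osi14 and -0.050 for Drsl5. After local centring CG9839 had 0.016, ytr 0.17, CG4036 0.028 and Gad1 0.15. Ote had -0.047 without the dye term, Osi6 ranged from -0.032 to 0.56 with 1 array left out (the lowest without day-14 replicate 2), and CG1468 had 0.11 as deposited. The causes were not tested.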
